A study of Homo sapiens with 2 samples.

Results

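The genes described here encode 10 adhesion molecules by which tumor cells can bind platelets, namely SELPLG, CD24, CD44, PODXL, PDPN, ALCAM, ICAM1, F11R, JAM3 and MCAM. They were chosen by gene symbol with earlier results of these data known, so shares over all genes are set beside them for description only. All 10 were found among the 21382 genes of the deposited table. Total RNA of untreated MDA PCa 2b and of untreated RC77 T/E cells, 2 human lines of prostate cancer, was analysed by RNA-Seq with 1 library for each. A difference between the lines therefore has no replicate check, and no p-value is given. MDA PCa 2b was derived from a bone metastasis, and RC77 T/E from tumor epithelium immortalised with papillomavirus oncogenes. The former was kept in F-12 medium with 20% serum, cholera toxin, EGF, phosphoethanolamine, hydrocortisone, selenite, insulin and antibiotics, and the latter in a serum-free keratinocyte medium with EGF and bovine pituitary extract, so that line and medium cannot be told apart. The values are TPM, in which reads are scaled by gene length and by the library's total. Levels can thus be compared between genes, but the number of reads behind a value is unknown. Where a pair of values is given below, the first is that of MDA PCa 2b and the second that of RC77 T/E.

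Platelets hold P-selectin in their granules and bring it to the surface when they are activated. P-selectin binds carbohydrate chains of the sialyl Lewis x type, which cells can carry on PSGL-1 (encoded by SELPLG), CD24 and glycoforms of CD44. Podocalyxin (PODXL) can carry chains bound by selectins, but binding by P-selectin is not assumed for it here. Podoplanin (PDPN) is the ligand of CLEC-2, a platelet receptor whose clustering starts a tyrosine kinase cascade and aggregation. The other members belong to the immunoglobulin superfamily and adhere through homophilic contacts, integrins or bridging plasma and matrix proteins. In the prostate, CD44 is a known marker of the basal cell layer.

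Of the 10 adhesion molecules, 8 had the higher TPM in RC77 T/E, while PODXL and JAM3 were higher in the other line. On the log2(TPM + 1) scale the genes CD44, CD24, MCAM, ICAM1, PDPN, ALCAM and F11R, 7 in all, differed by 2-fold or more in favor of RC77 T/E, and 0 in favor of MDA PCa 2b. The corresponding shares of the 11624 genes whose mean reached 1 TPM were 19.4% and 20.0%. For the 10 genes the median log2 ratio, RC77 T/E over MDA PCa 2b, was 2.20, and for the 11624 genes it was -0.15. At 4-fold, 5 members passed in favor of RC77 T/E and 0 in favor of MDA PCa 2b, against 9.69% and 6.19% of the 11624 genes. By the plain ratio, without a pseudocount, 7 of the 8 members with a mean of 1 TPM or more passed 2-fold in favor of RC77 T/E and 1, PODXL, in the opposite direction, against 20.9% and 23.4% of the 11285 genes that also had values above 0 in both libraries. SELPLG, with a mean under 1 TPM, also passed by the plain ratio, but neither it nor JAM3 is among the 11624 or the 11285 genes. In bulk RNA, fewer cells with a transcript and less of it per cell cannot be told apart.

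The methods of the study call a gene expressed by its mean over the samples, with 1 TPM as the limit and a second condition on the share of samples that hold it. A mean of 1 TPM or more was found for 8 of the 10 genes, the exceptions being SELPLG and JAM3. Below, "expressed" is used of a single library at 1 TPM or more, which is not the rule of the study. By it MDA PCa 2b expressed 5 of the 10 genes and RC77 T/E expressed 8, against 49.6% and 52.8% of the 21382 genes. Of the 8 members expressed in either line, CD44, MCAM and PDPN, 3 in all, reached 1 TPM in RC77 T/E alone. So did 12.5% of the 12126 genes expressed in either line. In MDA PCa 2b alone 0 members reached it, against 6.93% of the 12126 genes. SELPLG and JAM3 were under 1 TPM in both libraries. Many deposited values above 1 TPM have lost their decimal mark, which was put back with the help of the mean and standard error in the same row. A single pair of values remained for 6 members, including SELPLG and JAM3, which lie under 1 TPM in both libraries. By the numbers of the row alone, more than 1 position was possible for ALCAM, ICAM1, F11R and PODXL, and each pair that fits is given. No other material of the study was used to choose among the positions. For each of these genes the ratio between the lines was the same at every position.

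**Figure D1:**
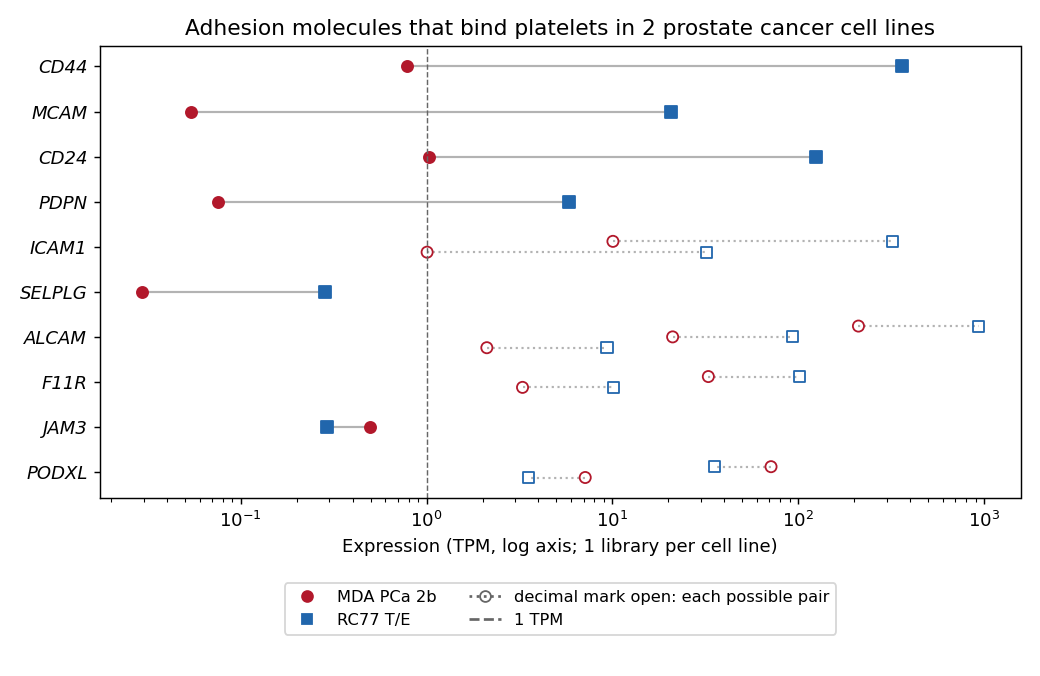
Expression in TPM (log axis) of the 10 adhesion molecules in MDA PCa 2b (circles) and RC77 T/E cells (squares), with 1 library per line. Open symbols joined by dotted lines are the pairs of values allowed where the position of the decimal mark was not determined. CD44 runs from 0.786 to 363.7 TPM, while PODXL and JAM3 lie higher in MDA PCa 2b.

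The bases before the start site are printed for CD44, MCAM, CD24, PDPN and ICAM1, the 5 members with the largest plain ratios. RefSeq windows on GRCh38.p14, from 250 bases before a start to 50 bases after it, were used for these and for ALCAM. For SELPLG, PODXL, F11R and JAM3 none was used. Where several starts are listed the first was taken. For CD44, PDPN, MCAM (chr11:119308529-119321521) and ICAM1 the RefSeq start lies inside the gene as the table bounds it. All 250 printed bases of CD44, PDPN and MCAM fall within those bounds, as do 27 of those of ICAM1 and 0 of those of CD24. The sequences run 5′ to 3′ on the strand of the gene. Capitals mark matches, on either strand, to the GC box (GGGCGG), the TATA box (TATAAA), the cAMP response element (TGACGTCA) and a kappaB-type element (GGAAATTCC). All motifs were chosen after these windows had been read, so a match to one of them is a description only.
CD44, chr11:35138921-35139170, plus strand: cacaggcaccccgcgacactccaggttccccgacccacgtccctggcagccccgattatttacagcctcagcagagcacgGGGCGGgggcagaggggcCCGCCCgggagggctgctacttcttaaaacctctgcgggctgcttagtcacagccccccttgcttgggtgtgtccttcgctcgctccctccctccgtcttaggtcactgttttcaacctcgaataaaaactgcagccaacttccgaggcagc
MCAM, chr11:119317131-119317380, minus strand: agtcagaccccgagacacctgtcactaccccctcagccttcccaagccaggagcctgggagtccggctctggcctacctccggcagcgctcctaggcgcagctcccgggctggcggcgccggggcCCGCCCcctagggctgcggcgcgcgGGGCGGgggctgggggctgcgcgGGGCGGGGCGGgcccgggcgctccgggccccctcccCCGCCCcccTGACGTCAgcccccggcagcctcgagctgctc
CD24, chr6:106975628-106975877, minus strand: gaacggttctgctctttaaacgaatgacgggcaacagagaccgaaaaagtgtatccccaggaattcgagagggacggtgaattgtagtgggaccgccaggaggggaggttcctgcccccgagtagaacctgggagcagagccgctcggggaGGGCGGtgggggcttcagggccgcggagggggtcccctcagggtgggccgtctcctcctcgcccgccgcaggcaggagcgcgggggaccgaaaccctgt
PDPN, chr1:13583507-13583756, plus strand: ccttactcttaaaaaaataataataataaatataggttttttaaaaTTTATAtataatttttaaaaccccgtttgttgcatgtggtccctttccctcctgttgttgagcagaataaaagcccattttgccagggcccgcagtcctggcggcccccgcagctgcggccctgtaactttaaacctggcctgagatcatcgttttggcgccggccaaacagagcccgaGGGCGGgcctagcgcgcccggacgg
ICAM1, chr19:10270870-10271119, plus strand: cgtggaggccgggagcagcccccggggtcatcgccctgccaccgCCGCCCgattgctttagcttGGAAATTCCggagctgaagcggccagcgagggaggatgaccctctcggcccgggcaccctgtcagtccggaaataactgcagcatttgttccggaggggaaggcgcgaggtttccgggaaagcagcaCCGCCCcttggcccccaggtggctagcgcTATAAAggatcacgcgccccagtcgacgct
A GC box was present in all 6 windows, and in 45.0% of the 35114 RefSeq windows of this length. MCAM has 5 of them, a pair of which overlap by 1 base. TATAAA stands at positions -30 to -25 of ICAM1 and, on the opposite strand, at -204 to -199 of PDPN, and in 11.5% of all windows. GGAAATTCC stands at -186 to -178 of ICAM1 and in 0.461% of all windows. TGACGTCA stands at -32 to -25 of MCAM and in 1.85% of all windows. The AP-1 motif TGANTCA, with N for any base, was in 0 of the 6 windows and in 7.71% of all. GC content was lowest for PDPN (52.0%) and highest for MCAM (78.0%), with a median of 58.7% over all windows. No binding was measured.

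Among the selectin ligands CD44, the hyaluronan receptor, differed most. Its level was 0.786 TPM in MDA PCa 2b and 462.7 times as high, at 363.7 TPM, in RC77 T/E. Of the 11285 genes, 1.83% had a larger ratio in that direction. In RC77 T/E between 194 and 1554 genes exceeded CD44, depending on the decimal marks of those genes, and in MDA PCa 2b 10840 did.
CD24, a small mucin-type protein held by a lipid anchor, had 1.03 and 125.2 TPM, a ratio of 121.8. It was just over the level of expression in MDA PCa 2b and second to CD44 among the 6 members with a fixed mark in RC77 T/E.
SELPLG encodes PSGL-1, the main P-selectin ligand of leukocytes. Its levels of 0.0294 and 0.285 TPM were both low, although the second was 9.70 times the first. With the pseudocount of 1 TPM the log2 ratio was 0.32. The pan-leukocyte gene PTPRC had 0.0113 TPM in MDA PCa 2b and was listed at 0 for RC77 T/E. Of the 5 leukocyte markers only CD14 reached 1 TPM, with 0.0730 and 4.92 TPM, and its part in the SELPLG values was not tested.
PODXL, a sialomucin related to CD34, ran the other way. It had 7.14 and 3.55 TPM, or 71.4 and 35.5 TPM, and was 2.01-fold higher in MDA PCa 2b. Its log2 ratio with the pseudocount was -0.84 at the lower and -0.99 at the higher position, both short of 2-fold. Of the 11285 genes, 76.9% had a ratio more in favor of RC77 T/E.

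Podoplanin, the CLEC-2 ligand, had 0.0752 and 5.84 TPM. The plain ratio was 77.7, and 4.19% of the 11285 genes had a larger one. It rests on a value near 0 in MDA PCa 2b, and the log2 ratio was 2.67 with the pseudocount of 1 TPM and 5.08 with one of 0.1 TPM. In RC77 T/E it was the lowest of the 4 expressed members with a fixed mark, behind MCAM, CD24 and CD44.

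ICAM1, MCAM and ALCAM, of the immunoglobulin superfamily, were all higher in RC77 T/E. ICAM1 binds the leukocyte integrins LFA-1 and Mac-1 and also fibrinogen, which in turn binds integrin αIIbβ3 of platelets. It had 1.01 and 32.0 TPM, or 10.1 and 320.2 TPM, a ratio of 31.8. Of the 11285 genes, 5.72% had a larger one.
MCAM, an adhesion protein of vascular and melanoma cells, had 0.0542 and 20.6 TPM. Its plain ratio of 379.5 was the second largest of the 10, and 2.14% of the 11285 genes had a larger one. This too rests on a value near 0, and the log2 ratio was 4.35 with the pseudocount of 1 TPM, behind CD44 (7.67) and CD24 (5.96), and 7.07 with one of 0.1 TPM. ICAM1 came after MCAM on the first of these scales with its mark at the lower position (4.04) and before it at the higher one (4.86).
ALCAM, which binds itself and the T cell protein CD6, had 2.11 and 9.36 TPM, 21.1 and 93.6 TPM, or 211.0 and 935.8 TPM. It was 4.44-fold higher in RC77 T/E. The log2 ratio with the pseudocount was 1.74 at the lowest position and 2.14 at the highest, so that it passed 4-fold only above the lowest position.

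The junctional adhesion molecules F11R and JAM3 differed in direction. F11R encodes JAM-A, a tight junction protein that platelets also carry and that binds itself. It had 3.28 and 10.1 TPM, or 32.8 and 101.3 TPM, and was 3.09-fold higher in RC77 T/E. JAM3 encodes JAM-C, a partner of the integrin Mac-1. It had 0.499 and 0.290 TPM, a ratio of 1.72 in favor of MDA PCa 2b between values that are both under 1 TPM.

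**Figure D2:**
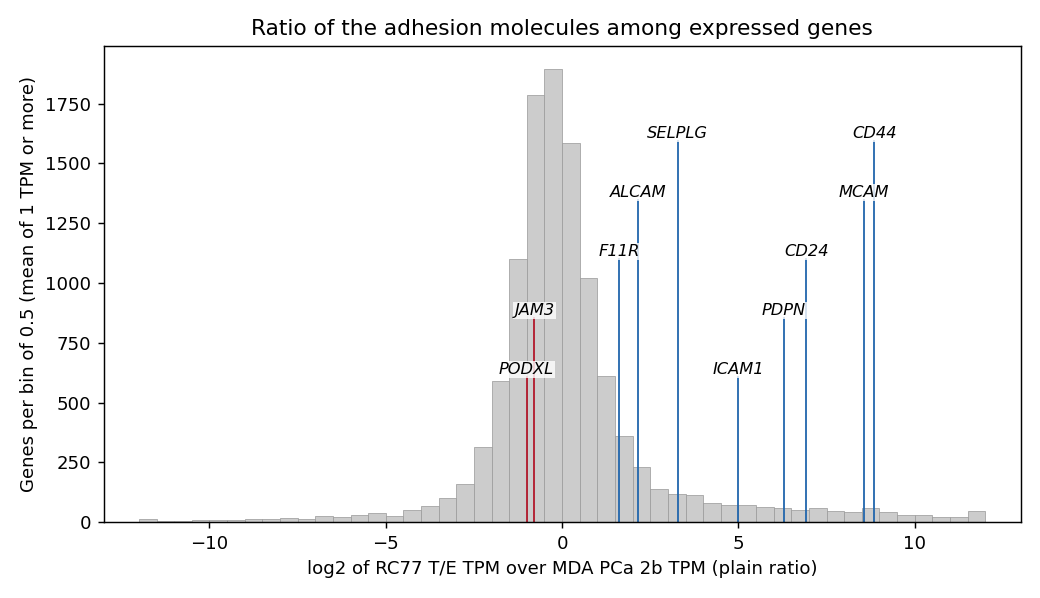
Number of genes (vertical axis, bins of 0.5) by the log2 of the plain TPM ratio, RC77 T/E over MDA PCa 2b, for 11285 genes whose mean reached 1 TPM and whose values were above 0 in both lines; ratios beyond 12 in size are in the end bins. Lines mark the 10 adhesion molecules, from PODXL at -1.01 to CD44 at 8.85 (SELPLG and JAM3 have means under 1 TPM and are not among the 11285).

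On GRCh38, CD44 (chr11:35138882-35232402), MCAM and JAM3 (chr11:134069071-134152001) share chromosome 11, and PDPN (chr1:13583465-13617957) and F11R (chr1:160995211-161021343) share chromosome 1. The others are CD24 (chr6:106969831-106975627), PODXL (chr7:131500262-131558217), ALCAM (chr3:105366909-105576900), SELPLG (chr12:108621895-108633894) and ICAM1 (chr19:10271093-10286615). In GENCODE release 29, CD44 has 39 transcripts, 26 of them coding, with up to 18 exons. The table holds 1 value per gene, so the standard and variant forms of CD44 could not be separated. That release also names 3 copies of CD24, and how reads were shared among such copies is not stated. JAM3 overlaps NCAPD3, and MCAM overlaps CBL, on opposite strands. NCAPD3 had 9.87 and 14.1 TPM or 10 times these values, against 0.499 and 0.290 TPM for JAM3. CBL had 3.31 and 7.32 TPM or 10 times these values, against 0.0542 and 20.6 TPM for MCAM. F11R overlaps the coding gene AL591806.3 on its own strand. The libraries were directional, but whether the TPM values use the strand is not stated.

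ICAM1 lies in a cluster with ICAM4, ICAM5 and ICAM3. ICAM5, an adhesion molecule known from neurons, starts 3337 bases beyond ICAM1 and had 0.315 and 30.8 TPM, a ratio of 97.9 in the same direction. ICAM4, between them, was listed at 0 and at 0.232 TPM. ICAM3, 47161 bases from ICAM1, was 2.01-fold higher in MDA PCa 2b. Among the 7 coding genes within 50 kb of ICAM1 whose mean reached 1 TPM, ICAM5 was the only one to pass 2-fold in favor of RC77 T/E on the log2(TPM + 1) scale.
Of 14 relatives of the members, 6 had a mean of 1 TPM or more. Among these, 2 passed 2-fold in favor of RC77 T/E and 1 in favor of MDA PCa 2b, or 2 with marks at the highest position, and the median log2 ratio was 0.018 over the 14 and -0.49 over the 6. L1CAM, a neural adhesion molecule, had 0.0341 and 30.0 TPM. PODXL2, a relative of PODXL, was 1.58-fold higher in MDA PCa 2b, with 54.1 or 541.2 TPM. CXADR, a junction protein, had 27.5 and 7.64 TPM. VCAM1 is listed at 0 in both libraries.

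Selectin ligands are made by glycosyltransferases and sulfotransferases. Of 21 genes of this synthesis, 11 were expressed in MDA PCa 2b, against 16 in RC77 T/E. Of the 14 with a mean of 1 TPM or more, 7 passed 2-fold in favor of RC77 T/E (8 with marks at the highest position) and 4 in favor of MDA PCa 2b. Medians of the log2 ratio were 0.26 over the 21 and 1.16 over the 14. B3GNT3, which extends core 1 O-glycans, had 0.0644 and 32.7 TPM. C1GALT1, which makes core 1, was 13.8-fold higher in RC77 T/E, and its chaperone C1GALT1C1 had 23.5 and 23.6 TPM. ST3GAL1, which caps core 1 with sialic acid, was 6.58-fold higher in MDA PCa 2b, with 47.1 or 470.8 TPM. GCNT1, which starts the core 2 branch, was 2.34-fold higher in MDA PCa 2b. Thus genes of O-glycan synthesis were found on both sides.
Fucosyltransferases add the fucose of sialyl Lewis x. FUT7 had 0.0445 and 0.00848 TPM, FUT4 had 0.0959 and 1.63 TPM, and FUT3 was 3.11-fold higher in MDA PCa 2b. TPST2, a tyrosine sulfotransferase of the kind that modifies PSGL-1, was 4.18-fold higher in RC77 T/E.

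Of 14 other glycoproteins that selectins or platelets can bind, 5 were expressed in MDA PCa 2b, against 7 in RC77 T/E. Of the 7 with a mean of 1 TPM or more, 4 passed 2-fold in favor of RC77 T/E and 0 in favor of MDA PCa 2b, and the median was 0.080 over the 14 and 1.34 over the 7. LGALS3BP, a galectin-binding secreted protein, was 13.9-fold higher in RC77 T/E, and CEACAM1 had 0.0687 and 4.09 TPM. PVR, the poliovirus receptor, had 26.0 and 22.0 TPM.

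Ezrin, radixin and moesin tie CD44, podocalyxin, podoplanin and ICAM1 to the actin cortex. Moesin (MSN) had 0.0714 and 225.1 TPM, a wider plain ratio than that of any member. Radixin (RDX) had 16.4 and 26.1 TPM, and ezrin (EZR) was 1.52-fold higher in MDA PCa 2b. NHERF2, an adaptor of podocalyxin, was 6.25-fold higher in MDA PCa 2b. Of the 6 linkers and adaptors analysed, 1 passed 2-fold in each direction (2 in favor of MDA PCa 2b with marks at the highest position), and the median was -0.18.
HAS3, which makes the CD44 ligand hyaluronan, had 0.358 and 77.3 TPM. ESRP1 and ESRP2, splicing factors that favor the variant exons of CD44, were 1.39 and 3.24 times as high in MDA PCa 2b. HYAL2, a hyaluronidase, was 1.16-fold higher in RC77 T/E. Of these 7 genes 4 had a mean of 1 TPM or more, 1 passed 2-fold in each direction, and the median was 0.20 over the 7 but -0.10 over the 4.

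Of 5 proteases of the kind that shed adhesion molecules, 3 passed 2-fold in favor of RC77 T/E and 0 in favor of MDA PCa 2b, with a median of 1.57. MMP14, a membrane protease that cleaves CD44, had 0.204 and 371.8 TPM, and MMP9, which docks on CD44, had 0.0510 and 266.0 TPM. ADAM10 was 1.49 times and ADAM17 3.22 times as high in RC77 T/E.
Of 9 ligands that can bridge members to platelets or matrix, 4 were expressed in each line, 3 of the 4 with a mean of 1 TPM or more passed 2-fold in favor of RC77 T/E, and the median was 0.15 over the 9 and 4.55 over the 4. LGALS1 (galectin-1) had 4.79 and 2791 TPM, and LGALS3 (galectin-3) had 1.24 and 127.0 TPM. THBS1 (thrombospondin-1) was 11.1-fold higher in RC77 T/E. LGALS8 had 8.50 and 8.27 TPM. LAMA4, a laminin chain bound by MCAM, had 0.0143 and 0.318 TPM, and FGB, of fibrinogen, is listed at 0 in both libraries.

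**Figure D3:**
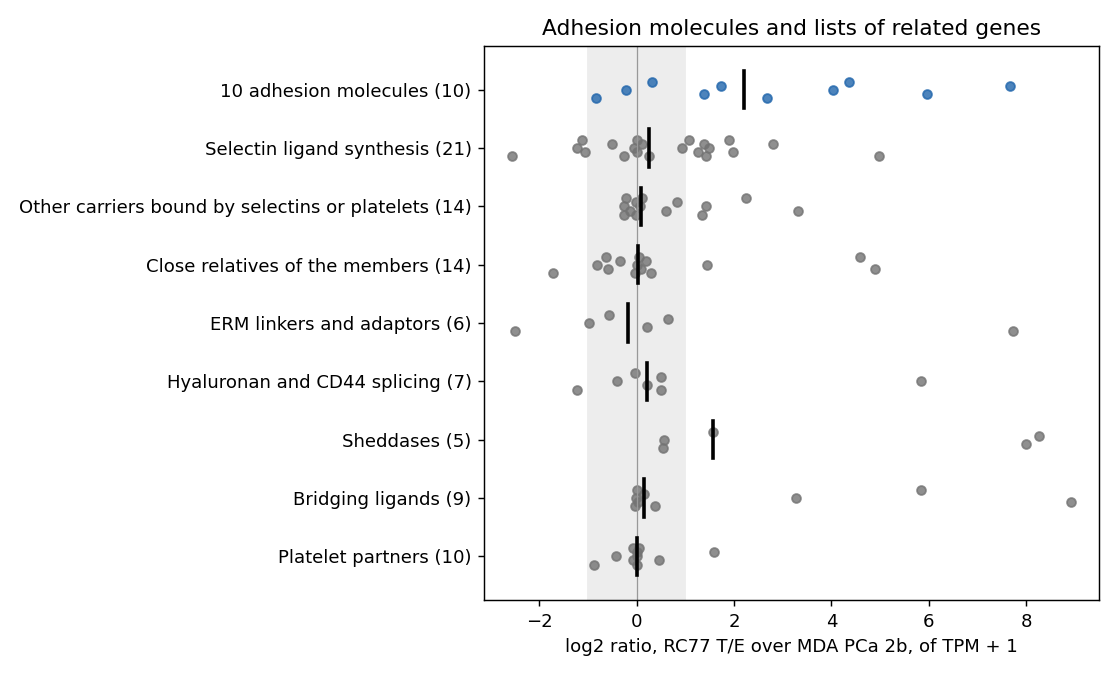
log2 TPM ratio, RC77 T/E over MDA PCa 2b, after adding 1 TPM to each value (horizontal axis) for the 10 adhesion molecules (blue) and the genes of 8 related lists (grey), with undetermined decimal marks at the lowest position. Black bars are medians and the shaded band is less than 2-fold; the median of the adhesion molecules is 2.20, and those of the lists run from -0.18 to 1.57, or from -0.49 to 4.55 over the list genes with a mean of 1 TPM or more alone.

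**Figure D4:**
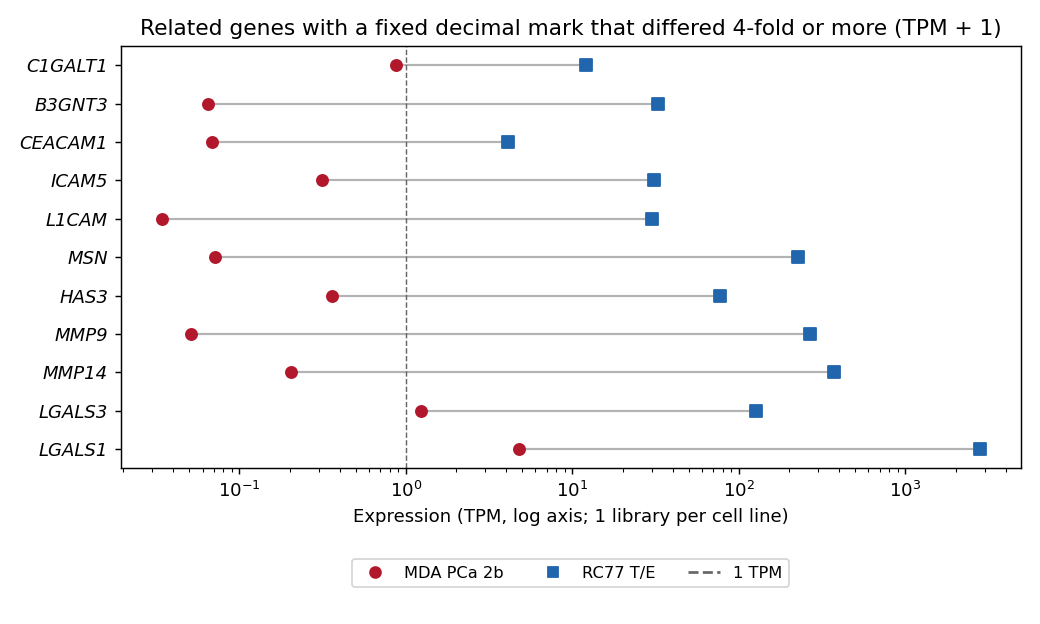
Expression in TPM (log axis) in MDA PCa 2b (circles) and RC77 T/E cells (squares) of the 11 related genes with a fixed decimal mark, values above 0 in both lines and a difference of 4-fold or more on the TPM + 1 scale. All 11 are higher in RC77 T/E, but ST3GAL1 and NHERF2, which pass 4-fold in favor of MDA PCa 2b, are left out of the plot because their mark was not determined.

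Of 10 receptors and integrin chains that platelets or, for the Mac-1 chains ITGAM and ITGB2, leukocytes use to bind the members or one another (platelet partners in the plot of the lists), 2 were expressed in each line and 3, SELP (P-selectin), CLEC1B (CLEC-2) and GP9, are listed at 0 in both. Of the 3 with a mean of 1 TPM or more, 1 passed 2-fold in favor of RC77 T/E, namely ITGB2, the β chain of Mac-1 and not a typical platelet receptor, with 0.101 and 2.32 TPM. In favor of MDA PCa 2b 0 passed, or 1 with marks at the highest position, namely GP1BB, a chain of the von Willebrand factor receptor with a plain ratio of 2.22. The summed level of 6 platelet markers was 0.410 and 1.13 TPM, none reached 1 TPM, and PF4 as well as GP9 stood at 0 in each library. The summed level of 4 endothelial markers was 0.0231 and 0.0590 TPM, and that of 4 fibroblast markers 1.72 and 9.17 TPM. Of the latter COL1A1 had 0.554 and 8.24 TPM, while COL3A1 had 0.533 TPM and was listed at 0 in RC77 T/E.
The lines also differed in basal epithelial markers. All 5 basal markers passed 2-fold in favor of RC77 T/E, among them KRT5 with 0.00435 and 4027 TPM. The part of this difference in the values of the adhesion molecules was not tested.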

How the data were processed

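RNA was extracted with TRIzol and sequenced from paired-end directional libraries, 1 per cell line. The authors deposited TPM per locus, with the mean and standard error of both columns. The submitters' processing notes name CASAVA, FastQC 0.11.9, Trimmomatic 0.38, Salmon 1.2.0 and GRCh38. The row identifiers begin with XLOC, a form that Salmon does not give by itself, and the source of the gene models is not given in the sources used here, so the transcripts and overlaps taken from GENCODE may differ from those behind the TPM values. In 10361 values of MDA PCa 2b and 11082 of RC77 T/E the decimal mark is missing. Positions leaving 1 to 3 whole digits and 3 or more decimals were tried, and those that give the listed mean and standard error were kept. For 16211 of 22704 loci 1 position remained. For 6493 there were 2 or 3, and the lowest was used for sums and log2 ratios. On 3000 simulated rows the true pair was among those kept in 3000, and where 1 position remained, in 2386 rows, it was the true one in 2386. This checks only that the step runs as intended, since a true pair always gives its own mean and standard error. Whether the deposited values keep to the assumed numbers of digits was not tested by it.

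Loci of 1 symbol were summed. Ratios are plain, or log2 with a pseudocount of 1 TPM, which understates differences of low genes. Depth is not determined, nor, with decimal marks open, is the total of a library. Members and lists were chosen with earlier results of these data known. List genes were to be named where they reached 1 TPM and differed 4-fold on the log2(TPM + 1) scale, were the highest of their list, or were listed at 0 in both lines. Others named, such as CXADR, C1GALT1C1, GCNT1, FUT3, FUT4, FUT7, TPST2, RDX, EZR, ESRP1, ESRP2, ADAM17, LAMA4 and PTPRC, were picked after their values were seen. NECTIN2, AFDN and NHERF1 were not found by the symbols and identifiers searched, so the counts and medians of their lists leave them out. Whether they stand in the deposited table under another name was not determined. The luminal markers are not reported here. Alternatives covered the threshold, pseudocount, scaling, decimal mark, summing and fold. Python 3.11.15, numpy 2.4.6 and matplotlib 3.10.9 were used.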

Additional observations from a re-analysis of the deposited data

How the results depend on the processing

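Only centring on the median of expressed genes and scaling to the upper quartile could have changed the direction of a member, and neither did. The pseudocount, the decimal mark and the choice of row cannot change it. JAM3 came nearest to a change, with a log2 ratio of -0.22 as reported and -0.064 after centring. Without a pseudocount, a setting added after seeing the data, 1 member, PODXL, passed 2-fold in favor of MDA PCa 2b in place of 0. The median log2 ratio of the members, 2.20 as reported, became 3.48 with a pseudocount of 0.1 TPM and 4.13 with none. At a threshold of 5 TPM, 1 member was expressed in MDA PCa 2b in place of 5, and 4 were when the undetermined marks were also put at their highest position, a combination added after seeing the data. Of 60 recomputed single ratios 16 could not change (each member has 1 row, and 6 have a fixed mark), 31 moved by less than 1.5 times and 13 by more, the latter with a smaller or no pseudocount or, for ICAM1 (4.86), with the mark at its highest position. With a pseudocount of 0.1 TPM the medians of selectin ligand synthesis and of the bridging ligands rose to 1.04 and 1.06. Counts within lists were recomputed only for the decimal mark. No paired analysis was possible because there is 1 library per line. With depth unknown, no limit can be given for values near 0, such as those of SELPLG and JAM3.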

Other observations

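Some genes beside the members had values of their own, picked by position after the members' values were known. CORO1C, 11215 bases from SELPLG, had a ratio of 3.07 in favor of RC77 T/E. TSTD1, 16288 bases from F11R, had a ratio of 3.86 in favor of MDA PCa 2b, opposite to F11R. Near MCAM, C1QTNF5 had 0.0214 TPM in MDA PCa 2b against 1.15 in the other line, and USP2 0.0175 against 0.613. SLC1A2, 18803 bases from CD44, had 0.0143 TPM in MDA PCa 2b against 0.00412 in the other line.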
